A study of Mus musculus with 17 samples.

Results

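Antigen presentation genes were followed across the cortex of Tsc1CKO and control mice at 2 ages. They were taken from the deposited count table as every gene whose symbol starts with H2-, the symbols of the mouse major histocompatibility complex (MHC), together with B2m, Tap1, Tap2, Tapbp, Psmb8, Psmb9, Psmb10, Cd74, Ciita and Nlrc5. This gave 52 of 23284 genes, of which 42 carry an H2- symbol and 10 were named singly. By nomenclature 38 belong to the class I pathway and 12 to the class II pathway. H2-Ke2, a prefoldin subunit, and H2-Ke6, a steroid dehydrogenase, are unrelated genes of the same region and were kept apart.

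RNA came from the upper portion of the parietal and somatosensory cortex. The mice had a mixed Bl6/129S background. Tsc1CKO mice (mGfapCre+:Tsc1CKO) lack Tsc1, a brake on the growth kinase mTOR, in cells in which a Cre recombinase driven by the mouse Gfap promoter has been active, mainly astrocytes, and in some Gfap-Cre lines also descendants of Gfap-expressing progenitors. Controls were littermates labelled mGFAPCre+, so both genotypes carry the Cre driver. There were 5 Tsc1CKO and 5 control libraries at 4 weeks of age and 4 Tsc1CKO and 3 control libraries at 15 weeks. Whether every library is a mouse of its own is not said in the labels. Test results therefore weigh differences against the scatter among libraries, which may be technical. The tissue is whole cortex, in which more cells of a type and more RNA per cell cannot be told apart.

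Class I molecules are a heavy chain, such as the products of H2-K1 and H2-D1, paired with the light chain beta-2 microglobulin (B2m), and they show peptides from inside the cell to CD8 T cells. Those peptides are cut by the proteasome, whose immunoproteasome form carries the interferon-inducible subunits Psmb8, Psmb9 and Psmb10, pumped into the endoplasmic reticulum by Tap1 and Tap2, and loaded with the help of tapasin (Tapbp). Class II molecules are an alpha and a beta chain (H2-Aa with H2-Ab1, or an E alpha chain with H2-Eb1), guarded by the invariant chain Cd74 and loaded by the H2-DM proteins, and they show peptides from endosomes to CD4 T cells. Nlrc5 drives class I genes and Ciita drives class II genes, both through shared promoter boxes. In healthy brain these genes are low in neurons, and class II chains are carried mainly by macrophages at the brain's borders and by activated microglia.

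The promoters of 5 members are shown because all 5 genes had their highest 15-week level in the same library, Tsc1CKO replicate 2, and because class I and class II promoters are known for the same short boxes. Sequences are the 250 bases before the RefSeq transcription start, 5′ to 3′ on the gene's strand, in build GRCm38.p6. Capitals mark exact matches on either strand to GAAA followed by any 2 bases and GAAA (the core of the interferon response element), CCAAT (the core of the Y box, ATTGG on the other strand) and TGACG (the core of the cyclic AMP response element, found in the X2 box).
B2m, chr2:122147437-122147686, plus strand: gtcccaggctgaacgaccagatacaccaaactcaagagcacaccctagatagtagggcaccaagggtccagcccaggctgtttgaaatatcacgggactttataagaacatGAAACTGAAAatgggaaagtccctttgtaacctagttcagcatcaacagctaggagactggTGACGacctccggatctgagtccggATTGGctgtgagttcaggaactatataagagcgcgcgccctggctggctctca
H2-K1, chr17:34000348-34000597, minus strand: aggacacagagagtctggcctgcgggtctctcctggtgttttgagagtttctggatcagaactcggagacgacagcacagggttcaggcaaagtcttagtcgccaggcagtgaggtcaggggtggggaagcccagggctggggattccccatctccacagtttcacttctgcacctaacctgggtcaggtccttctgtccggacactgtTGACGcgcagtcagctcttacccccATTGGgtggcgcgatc
H2-D1, chr17:35262844-35263093, plus strand: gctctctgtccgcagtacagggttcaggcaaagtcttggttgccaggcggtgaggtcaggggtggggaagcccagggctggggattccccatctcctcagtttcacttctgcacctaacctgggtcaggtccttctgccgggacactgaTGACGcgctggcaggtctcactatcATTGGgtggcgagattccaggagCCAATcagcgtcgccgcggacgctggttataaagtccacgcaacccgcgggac
H2-T23, chr17:36032702-36032951, minus strand: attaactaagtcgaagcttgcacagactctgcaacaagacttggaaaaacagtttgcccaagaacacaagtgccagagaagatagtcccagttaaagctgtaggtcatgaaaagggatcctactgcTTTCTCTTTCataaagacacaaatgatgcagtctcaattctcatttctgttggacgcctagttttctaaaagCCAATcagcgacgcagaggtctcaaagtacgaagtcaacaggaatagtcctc
H2-Aa, chr17:34287824-34288073, minus strand: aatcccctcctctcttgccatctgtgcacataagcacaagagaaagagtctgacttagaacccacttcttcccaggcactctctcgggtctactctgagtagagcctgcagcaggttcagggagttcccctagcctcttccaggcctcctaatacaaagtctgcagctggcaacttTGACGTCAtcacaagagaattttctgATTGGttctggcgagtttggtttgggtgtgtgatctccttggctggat

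H2-K1 has a pair of starts in the RefSeq table, and the upstream one is shown. In B2m the interferon core began 139 bases before the start, the TGACG core 78 bases and the reversed CCAAT core 53 bases before it. In H2-Aa a TGACG core lay 74 bases before the start, overlapping its own reverse match at 71 bases, and the reversed CCAAT core lay 48 bases before it. Of 37 members with a promoter in the table, 28 are class I and 8 class II. A gene was counted if any of its promoters had the match. The CCAAT core was found for 23 of the 28 class I and 8 of the 8 class II genes, against 37.5% of 27025 genes. For H2-DMa it was before only 1 of its starts, 198 bases from it. The TGACG core was found for 14 class I genes and 1 class II gene, against 19.8% of genes. An exact match to the interferon core was in promoters of 3 class I genes (B2m, H2-T22 and H2-T23) and 0 class II genes, against 3.46% of genes. Variants of these cores were not searched for, so a promoter without a match, such as that of H2-K1 or H2-D1 for the interferon core, may still hold one. A match is a description of letters and not of a bound site.

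Libraries held 13492007 to 24583430 counts at 4 weeks and 16680450 to 20508464 counts at 15 weeks. The defining astrocyte markers were present in every library, at a summed 6823 to 15210 CPM (counts scaled to library size) over 10 genes, and the excitatory neuron markers at 4926 to 10460 CPM over 7 genes. Pituitary genes (6 genes, hormone genes such as Gh) summed to 77.3 CPM in Tsc1CKO replicate 2 at 15 weeks and to 1.23 to 5.63 CPM in the other 15-week libraries. At 4 weeks they ranged from 3.89 to 493.1 CPM in Tsc1CKO and from 1.94 to 119 CPM in controls. Tsc1CKO replicate 2 at 15 weeks also had the highest share of counts on Rn45s, the ribosomal RNA precursor, at 10.7% against 2.43% to 7.27% in the other 16 libraries. Its chi-square per degree of freedom was 84.8 and 93.6 against replicates 3 and 4 and 48.0 against replicate 1, where the other pairs of that group were at 24.6 to 55.7. CPM here are on 1 scale over all 17 libraries, after TMM normalization.

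Most of the 52 genes were scarce in cortex. Of the class I members, 7 had 0 counts in all 17 libraries (H2-M10.4, H2-M10.5, H2-M10.6, H2-M11, H2-Q7, H2-Q9 and H2-T9), where 3 counts are worth 0.122 to 0.219 CPM depending on the library. H2-T9 shares 98.3% of its 100-base windows with a neighbouring gene model, and H2-Q7 shares 37.4% with other genes or places, and how reads that map to more than 1 place were counted is not stated. For H2-K1 and H2-D1 the shared part was 2.06% and 3.45%, and for B2m, Cd74, H2-Aa, H2-Ab1 and H2-Eb1 it was 0%. Windows were compared with protein-coding transcripts, gene models of chromosome 17 and that chromosome from base 33000001 to 39000000. Copies in the rest of the genome were not searched for, also not for B2m and Cd74, which lie on other chromosomes. H2-T22 and H2-T10 share 32.9% and 28.7%, and H2-DMb1 shares 12.98% with H2-DMb2, so the values of these 4 are uncertain. The library kit does not mark strand, so reads of the overlapping pairs Tap1 with Psmb9 and H2-Aa with H2-Ab1 may also mix.

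Per length of exon (RPKM, the CPM divided by kilobases of exon, from the mm9 gene models of GENCODE vM1), B2m stood above all other class I and class II members in 15-week controls, at 101 RPKM. Psmb10 followed at 27.4 RPKM, then H2-D1 at 12.8, Cd74 at 12.6, Tapbp at 8.07, H2-K1 at 5.96, H2-DMa at 5.26, H2-T23 at 3.39 and H2-T24 at 3.39 RPKM. In 4-week controls the class I order was B2m (100.3), Psmb10 (30.8), Tapbp (6.57), H2-D1 (5.39), H2-T24 (3.38), H2-K1 (2.60) and H2-T23 (2.04 RPKM). H2-DMa, part of the class II peptide exchanger, was at 4.68 and Cd74 at 2.28 RPKM there. Over the 15-week controls the coefficient of variation was 120.8% for Cd74, 42.6% for H2-D1, 58.5% for H2-K1, 40.0% for H2-T23 and 27.4% for H2-T24. The neighbours H2-D1 and Cd74, and H2-T23 and H2-T24, therefore do not differ beyond their spread. The class II chains H2-Eb1 (3.03), H2-Ab1 (2.10) and H2-Aa (2.07 RPKM) were in 15-week controls lower than H2-D1 per length.

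At 15 weeks the class I light chain and classical heavy chains had higher means in Tsc1CKO than in control cortex, but no member passed the test (Benjamini-Hochberg adjusted p under 0.05 over all genes). B2m (mm9 chr2:121973422-121978819, plus strand, protein coding) was at 245, 309, 107 and 110 CPM in the 4 Tsc1CKO libraries, in order of replicate, against 73.9, 96.0 and 90.7 CPM in the 3 controls. All 4 Tsc1CKO libraries lay above all 3 controls, and replicates 1 and 2 lay far above replicates 3 and 4. On the log2 scale the difference was 1.16 ± 0.37 (SE, adjusted p = 0.0998), or 2.24-fold. Over all 15015 genes tested the background was 3.78% called, and edgeR's quasi-likelihood test called 0 of the 18 class I and 0 of the 9 class II members tested. Without adjustment, 5 class I members (Tapbp, H2-K2, B2m, H2-K1 and Tap2) and 1 class II member (H2-DMb1) had a p under 0.05, all higher, against 15.7% of all genes that were higher at that level.

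The same libraries were high for the classical heavy chains. H2-K1 (chr17:34132962-34137278, minus strand) was at 47.3, 69.4, 22.2 and 22.5 CPM in Tsc1CKO and at 11.6, 25.9 and 9.10 CPM in controls (log2 fold change 1.39 ± 0.49 SE, adjusted p = 0.126). Control replicate 2 lay above Tsc1CKO replicates 3 and 4, so the groups overlapped. H2-D1 (chr17:35399675-35404444, plus strand) was at 75.5, 109.6, 48.4 and 26.6 CPM in Tsc1CKO and at 24.8, 49.2 and 25.0 CPM in controls, a difference of 0.99 ± 0.45 (SE; adjusted p = 0.207). Here too replicate 2 was the highest library of each group. H2-T23, the heavy chain Qa-1 that is read by natural killer cell receptors, was at 16.4, 21.8, 8.30 and 12.1 CPM against 13.1, 10.8 and 5.47 CPM (0.60 ± 0.36, adjusted p = 0.327). H2-T24, a non-classical heavy chain, was at 8.65, 7.52, 6.13 and 10.1 CPM against 6.73, 9.71 and 5.82 CPM (0.15 ± 0.24, adjusted p = 0.717), with the groups interleaved. The pseudogene H2-K2, singled out for its values, lay 21.6 kb from H2-K1. It had 0.805, 1.15, 0.892 and 0.618 CPM against 0.468, 0.162 and 0.346 CPM, from 3 to 19 counts a library. Its groups did not overlap (1.43 ± 0.44, adjusted p = 0.0907). With Gh as a covariate, the pituitary hormone gene that is highest in Tsc1CKO replicate 2 at this age, the differences were smaller, at 0.51 for B2m, 0.62 for H2-K1 and 0.30 for H2-D1 (adjusted p = 0.499, 0.592 and 0.800). With Rn45s removed they were 1.17, 1.39 and 1.00.

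Among the loading genes, tapasin had the smallest p at this age. Tapbp (chr17:34052844-34066235, plus strand) was at 39.2, 42.9, 32.0 and 36.1 CPM in Tsc1CKO and at 24.6, 29.3 and 26.0 CPM in controls. The groups did not overlap, and the difference of 0.52 ± 0.13 (SE; adjusted p = 0.0609) was 1.43-fold. In all, B2m, H2-K2 and Tapbp were the 3 of 18 class I members whose Tsc1CKO libraries all lay above the controls, and 0 of 9 class II members did so, against 11.2% of all genes. The transporter genes Tap2 and Tap1, outside the fixed rule for named genes, differed by 0.50 ± 0.21 (adjusted p = 0.181) and 0.92 ± 0.54 (adjusted p = 0.311). Tap1 ran from 2.10 to 9.10 CPM in Tsc1CKO and from 1.32 to 4.15 CPM in controls. The transactivator Nlrc5 was at 2.56, 4.37, 1.17 and 0.557 CPM against 0.351, 2.48 and 0.691 CPM (0.88 ± 0.77, adjusted p = 0.488), again highest in both libraries numbered 2.

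**Figure D1:**
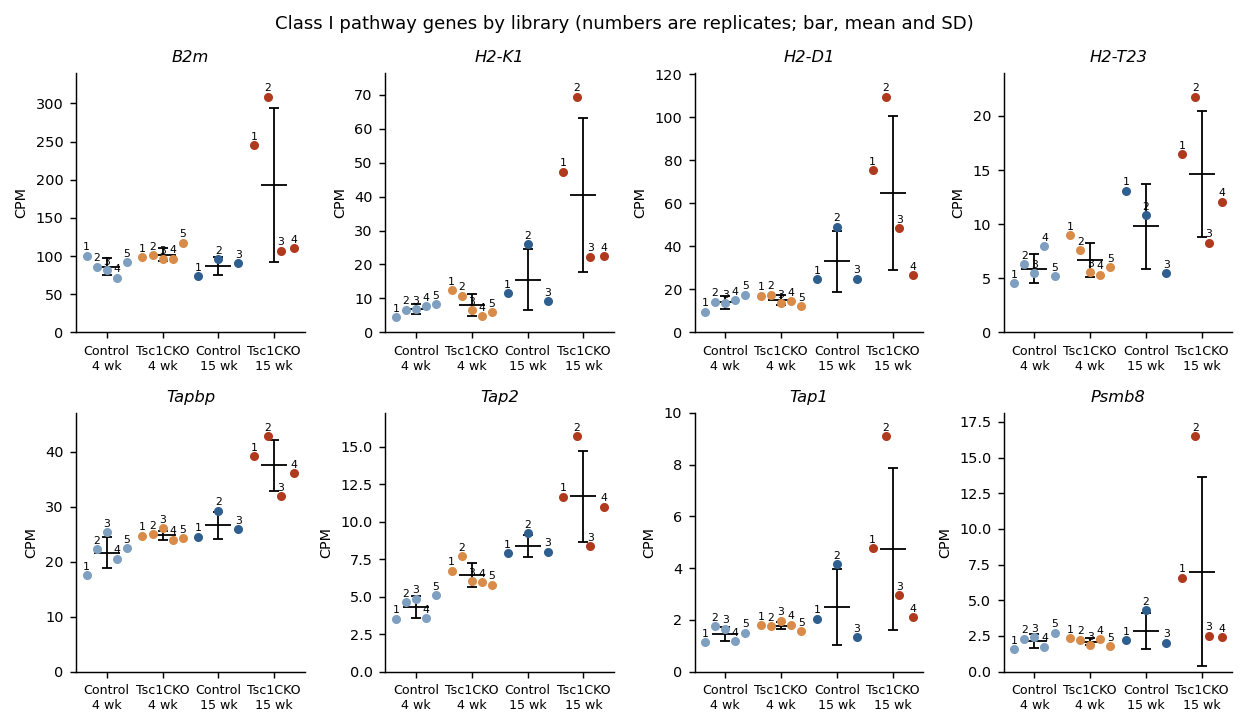
CPM of 8 class I pathway genes (y axis, linear from 0) in each library of the 4 groups (x axis); small numbers are replicates, bars give the group mean and SD. At 15 weeks Tsc1CKO replicates 1 and 2 stand above replicates 3 and 4 for B2m (245 and 309 against 107 and 110 CPM), H2-K1 and H2-D1, while Tapbp is above the controls in all 4.

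None of the 3 immunoproteasome subunits was called, and each was highest in Tsc1CKO replicate 2. Psmb8 was at 6.59 and 16.5 CPM in Tsc1CKO replicates 1 and 2, at 2.51 and 2.41 CPM in replicates 3 and 4, and at 2.22, 4.31 and 2.02 CPM in controls (1.30 ± 0.68, adjusted p = 0.261). Psmb9 ran from 0.892 to 6.97 CPM in Tsc1CKO and from 0.761 to 2.05 CPM in controls (1.00 ± 0.72, adjusted p = 0.400). Psmb10 was at 39.6, 61.2, 32.7 and 31.0 CPM against 36.9, 35.3 and 32.3 CPM (0.26 ± 0.22, adjusted p = 0.479), so that replicates 1 and 2 were above all controls and replicates 3 and 4 were not. Each inducible subunit replaces a constitutive one, and the ratio within a library does not depend on its size. Psmb8 counts were 26.6%, 47.5%, 10.3% and 10.8% of Psmb5 counts in Tsc1CKO and 10.1%, 23.3% and 8.14% in controls, a log2 ratio higher by 0.64. Exact two-sided permutation tests of the 3 ratios at 15 weeks gave adjusted p-values of 0.631 to 0.800 over the 6 ratios tested, and this design cannot go below an unadjusted p of 0.0571. At 4 weeks the ratio of Psmb9 to Psmb6 was 1.88%, 2.06%, 1.79%, 1.84% and 1.18% in Tsc1CKO and 1.19%, 1.36%, 1.33%, 0.852% and 1.32% in controls. That is a log2 ratio higher by 0.52 (exact permutation p = 0.0397, adjusted p = 0.238), with 1 Tsc1CKO library inside the control range.

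Over the 18 class I members tested at 15 weeks, 16 fold changes were above 0, with a median log2 fold change of 0.73. Of all genes tested 52.3% were above 0, with a median of 0.02. The 2 class I members below 0 were H2-M5 (-0.09) and H2-Q1 (-0.04), both under 1 CPM. The remaining 20 class I members were too low to be tested at this age. The filter on low counts works by group, so a scarce member such as H2-K2, H2-DMb1 or H2-Oa could pass at 15 weeks through the group where it was high, and these counts and medians describe only the members that passed. DESeq2 called 3 class I members (Tapbp, B2m and H2-K1, adjusted p = 0.0131 to 0.0231), where it called 14.2% of all genes. limma voom with quality weights called 6 (B2m, Tapbp, H2-K2, H2-K1, H2-D1 and Tap2), where it called 34.5% of all genes. Without Tsc1CKO replicate 4, edgeR called 5 (B2m, Tapbp, H2-D1, H2-K2 and H2-K1), with 23.2% of all genes called. Each of these tools and settings also called H2-DMb1 of the class II members.

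**Figure D2:**
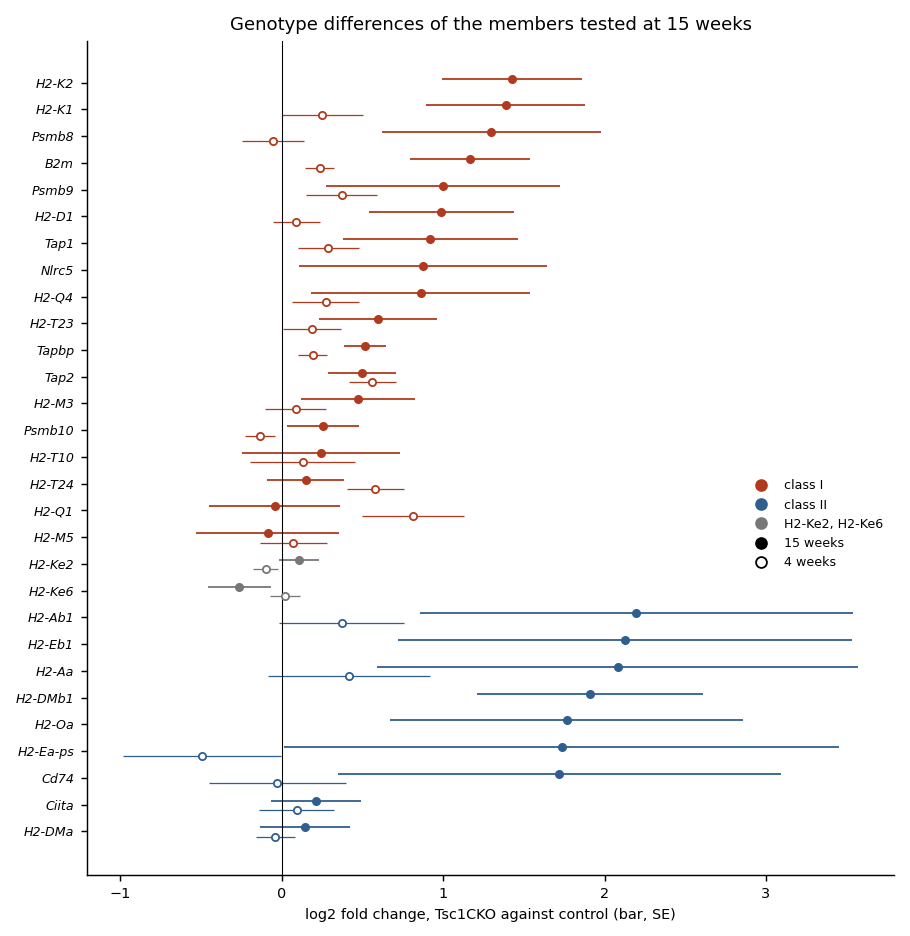
Log2 fold change of Tsc1CKO against control (x axis; bars, SE) for the members tested at 15 weeks (y axis), with filled points for 15 weeks and open points for 4 weeks; members without an open point were not tested at 4 weeks. Class II chains have the largest fold changes at 15 weeks, up to 2.20, and the widest bars, up to 1.72.

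Class II genes were high in 1 library of each genotype at 15 weeks and low in the others. The invariant chain gene Cd74 had 8.85, 209.5, 12.8 and 4.08 CPM in the Tsc1CKO libraries, in order of replicate, and 4.80, 42.7 and 5.99 CPM in the controls. In each group replicate 2 was the high one, in Tsc1CKO the library with the highest Rn45s share and, at this age, the highest pituitary sum, and among the other libraries both controls lay inside the Tsc1CKO range of 4.08 to 12.8 CPM. Its difference of 1.72 ± 1.37 on the log2 scale (adjusted p = 0.445) was not past the test, and it turned to -1.03 without Tsc1CKO replicate 2 and to 3.48 without control replicate 2. The class II chain genes fall outside the rule for named genes and were chosen for their values. H2-Aa was at 1.61, 65.4, 1.505 and 1.85 CPM against 1.46, 9.92 and 0.979 CPM, which is 39.5 times the mean of the other Tsc1CKO libraries in replicate 2 and 8.13 times that of the other controls in control replicate 2. H2-Ab1 was at 3.12, 56.2, 2.67 and 1.85 CPM against 0.819, 8.20 and 1.32 CPM, and H2-Eb1 at 2.26, 58.2, 1.45 and 1.67 CPM against 1.46, 8.09 and 1.27 CPM. Outside the 2 high libraries the 3 chains stayed between 0.819 and 3.12 CPM at this age.

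The locus of the E alpha chain followed the same 2 libraries. H2-Ea-ps, which in the haplotype of Bl6 mice is known as a pseudogene without a working promoter, had 0, 407, 10 and 0 counts in Tsc1CKO replicates 1 to 4 and 5, 74 and 23 counts in controls. The peptide exchanger gene H2-DMb1 was at 1.86, 4.49, 0.836 and 0.742 CPM in Tsc1CKO and at 0.527, 0.755 and 0.288 CPM in controls (1.91 ± 0.70, adjusted p = 0.134), where 1 Tsc1CKO library lay within the control range. H2-DMa, its partner, was at 7.80, 15.3, 7.24 and 7.42 CPM against 9.19, 7.28 and 9.45 CPM (0.15 ± 0.28, adjusted p = 0.763), and without Tsc1CKO replicate 2 its difference was -0.19. The transactivator Ciita did not follow: it was at 2.16, 2.67, 2.06 and 3.52 CPM in Tsc1CKO and at 1.75, 2.48 and 2.59 CPM in controls. H2-Eb2, H2-Ob and H2-DMb2 were too low to be tested. The 9 class II members tested all had a fold change above 0, with a median of 1.77. Of all genes tested 52.3% were above 0, with a median of 0.02. Tsc1CKO replicate 2 was the highest Tsc1CKO library for 8 of the 9. Without Tsc1CKO replicate 2, Cd74, H2-Aa, H2-Ab1, H2-Eb1 and H2-DMa were below 0, and H2-DMb1 was at 1.15.

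**Figure D3:**
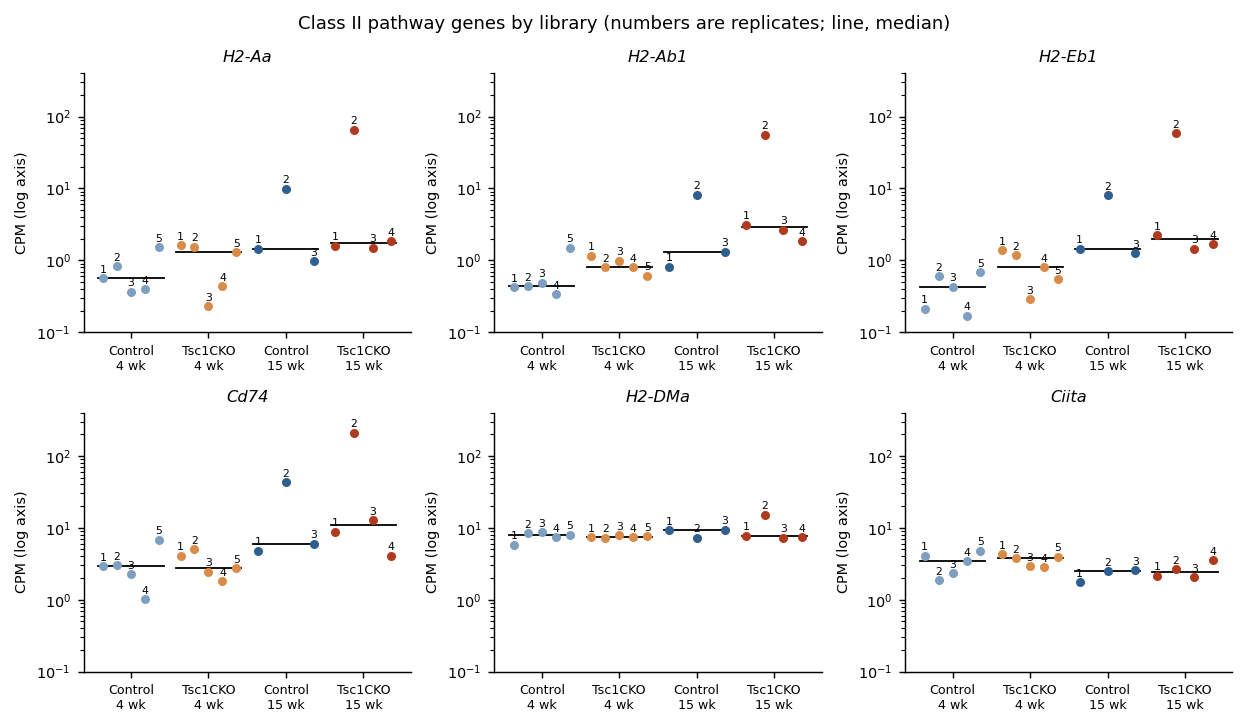
CPM of 6 class II pathway genes (y axis, log scale) in each library of the 4 groups (x axis); small numbers are replicates and lines are group medians. Replicate 2 of each 15-week group is high for H2-Aa, H2-Ab1, H2-Eb1 and Cd74 (209.5 and 42.7 CPM), whereas Ciita lies between 1.76 and 3.52 CPM in all 15-week libraries.

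Both libraries numbered 2 at 15 weeks were compared with the rest of their groups over every gene. Replicate 2 was the highest library of both groups for 7 of 9 class II members and 10 of 18 class I members tested, against 6.71% of all genes tested. Both libraries were picked because members were seen to be high in them. The member shares are thus set in part by that choice, and the share over all genes is not a fair background for them. The labels do not say that the shared number marks a litter, day or batch. Without both libraries together, an alternative added after the values were seen, 0 class I and 0 class II members were called. There B2m differed by 0.92, H2-K1 by 1.58, H2-D1 by 1.02, Tapbp by 0.51, Cd74 by 0.68, H2-Aa by 0.45, H2-Eb1 by 0.41 and H2-Ab1 by 1.26 on the log2 scale. For H2-K1 and H2-D1 this is no smaller than with all libraries, and for Tapbp it is about the same. For B2m it is smaller (0.92 against 1.165), and so it is for each of the 4 class II genes. Contrasts between these genes were not tested. With fewer libraries, 0.298% of all genes were called.

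Some marker sets were high in the same 15-week libraries and others were not. Summed over 26 interferon-stimulated genes, Tsc1CKO replicates 1 to 4 were at 374, 504, 138 and 154 CPM and the controls at 111, 130 and 118 CPM at 15 weeks. The 30 class I heavy chains summed to 163.5, 247, 99.3 and 81.1 CPM against 65.5, 112 and 57.2 CPM, so that Tsc1CKO replicates 2 and 1 were the highest libraries for both sets. The 15 T cell and natural killer cell markers summed to 4.88, 12.2, 3.96 and 2.54 CPM against 2.16, 3.61 and 2.59 CPM, and the class II chains to 6.99, 179.8, 5.63 and 5.38 CPM against 3.74, 26.2 and 3.57 CPM. In Tsc1CKO replicate 2 the T cell genes Cd8a, Cd8b1 and Cd3g had 25, 17 and 6 counts, and in each of the other 15-week libraries at most 7, 2 and 1. Of the same list, Cd28 had 50, 64, 38 and 9 counts in Tsc1CKO against 4, 10 and 3, and Cd4 had 8, 4, 7 and 10 against 9, 17 and 16, lowest in Tsc1CKO replicate 2. The 8 monocyte and neutrophil markers, all too low to be tested, summed to 1.157, 3.578, 1.115 and 1.051 CPM against 1.229, 1.887 and 2.016 CPM. Of these, Plac8 had 2, 14, 1 and 0 counts against 1, 2 and 1, and S100a9 had 2, 8, 6 and 5 against 6, 11 and 16. The 6 B cell markers stayed at 0.346 to 0.593 CPM, and the 8 dendritic cell markers at 13.9 to 18.4 CPM in sum. That sum is mostly Flt3 and Zbtb46, while Itgax of the same list had 48, 63, 54 and 5 counts in Tsc1CKO and 6, 15 and 4 in controls, highest in both libraries numbered 2. The 8 markers of border macrophages summed to 37.0, 34.3, 53.4 and 43.1 CPM against 26.2, 26.4 and 35.7 CPM, so replicate 2 was the lowest Tsc1CKO library for this sum. Stab1 is its largest part, with 398, 269, 616 and 436 counts in Tsc1CKO, lowest in replicate 2. Of the same list, Ms4a7 had 5, 12, 10 and 4 counts there, highest in replicate 2, and Cd163 had 102, 91, 107 and 51. Homeostatic microglia markers (15 genes) summed to 828, 1042, 561 and 644 CPM against 506, 500 and 427 CPM. Genes of activated microglia (20 genes) summed to 7207, 7957, 6194 and 4973 CPM against 3590, 3292 and 3549 CPM, and 9 of the 18 tested rose, with a median of 1.26. Most of this sum is Apoe and Fth1, so it says little of the rest of the list. Of the astrocyte markers 8 of 10 rose, and of the reactive astrocyte genes 4 of 8, where 3.78% of all genes were called. The reactive astrocyte genes summed to 227, 234, 257 and 122 CPM against 53.4, 54.8 and 67.8 CPM. Pituitary genes stood at 77.3 CPM in Tsc1CKO replicate 2 but at 1.35 CPM in control replicate 2. The part of these cells, of the interferon response and of pituitary tissue in the MHC values was not tested.

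**Figure D4:**
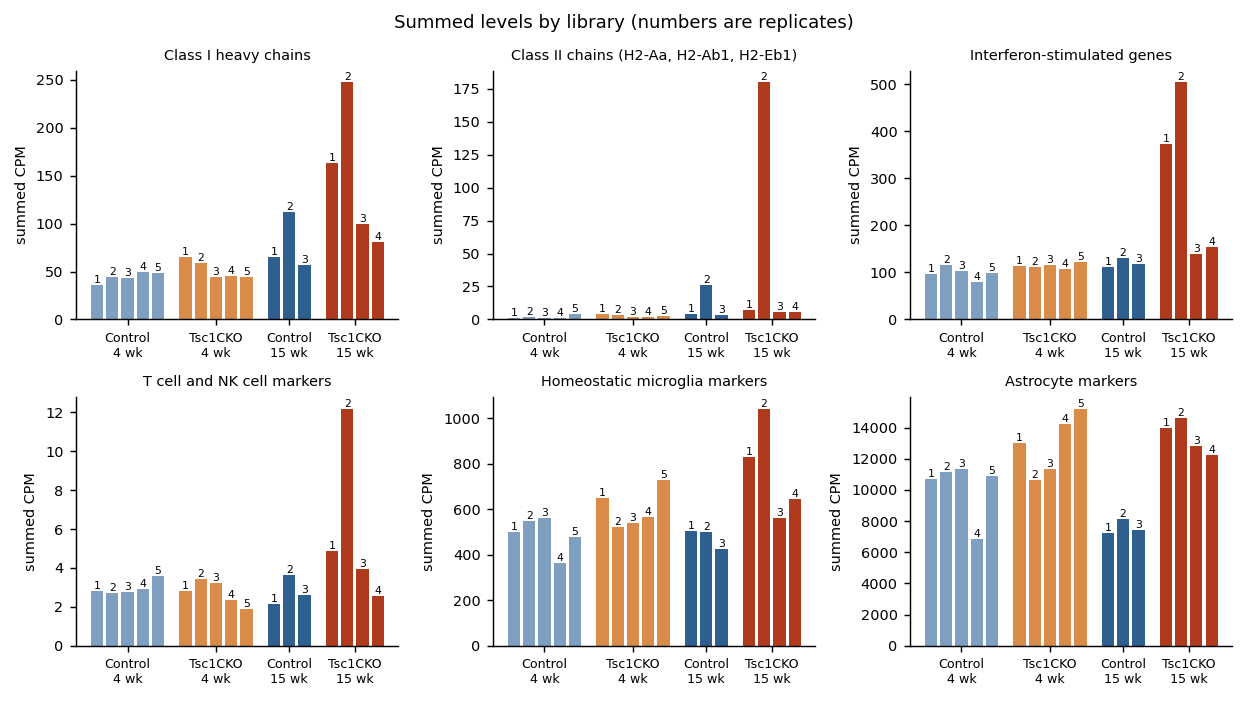
Summed CPM (y axis, from 0) of 6 gene sets in each of the 17 libraries (x axis, by group; numbers are replicates). Class II chains are high in replicate 2 of both 15-week groups (26.2 and 179.8 CPM), interferon-stimulated genes in Tsc1CKO replicates 1 and 2, and astrocyte markers in all 4 Tsc1CKO libraries at 15 weeks.

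Other genes of antigen presentation, taken from lists drawn up for this tissue, are given here for 15 weeks, to be read against 3.78% of all genes called and 15.7% higher at an unadjusted p under 0.05. Of 14 further class I pathway genes, such as the chaperones Calr and Canx and the peptidase Erap1, 0 were called and 0 had an unadjusted p under 0.05, with a median of 0.14. Of 8 further class II pathway genes tested, 2 rose, the thiol reductase Ifi30 (1.19 ± 0.24, adjusted p = 0.0374) and the protease Ctsd (1.25 ± 0.27, adjusted p = 0.0431), and 7 had an unadjusted p under 0.05, with a median of 1.15. Both belong to the lysosome and act outside antigen presentation as well. Of 24 interferon-stimulated genes tested, 2 rose (Rsad2, 2.14 ± 0.42, adjusted p = 0.0344, and Ifit3, 2.12 ± 0.47, adjusted p = 0.0462), 19 had an unadjusted p under 0.05, and the median was 1.71. Of 13 transcription factors of the class I and class II promoters, such as Rfx5 and Nfya, 0 were called and the median was -0.08. Irf8, a transcription factor of microglia and macrophages, had the smallest p of these (1.03 ± 0.36, adjusted p = 0.122). The 5 tested class I-like genes outside the H2 symbols were all higher at an unadjusted p under 0.05 and 0 were called, with a median of 0.98. Class I receptors could not be tested, since all 8 found in the table were too low.

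At 4 weeks no member passed the test in edgeR. B2m was at 98.6, 100.9, 96.3, 96.3 and 117.3 CPM in Tsc1CKO and at 100.2, 86.0, 81.6, 71.7 and 91.8 CPM in controls (log2 fold change 0.24 ± 0.09 SE, adjusted p = 0.175). The groups overlapped by 1 control library. Tap2 (chr17:34340472-34353266, plus strand) was the 1 member tested whose Tsc1CKO libraries all lay above the controls: it was at 6.72, 7.68, 6.04, 5.97 and 5.81 CPM in Tsc1CKO and at 3.54, 4.62, 4.87, 3.56 and 5.11 CPM in controls. Its difference was 0.56 ± 0.15 (SE; adjusted p = 0.0952). That made 1 of 17 class I and 0 of 6 class II members tested, against 1.84% of all genes with every Tsc1CKO library above every control. edgeR called 0 of the 17 and 0 of the 6, with 0.0407% of 14754 genes called, and 4 class I and 0 class II members were higher at an unadjusted p under 0.05 (Tap2, H2-T24, B2m and H2-Q1), against 9.81% of all genes.

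H2-T24 was at 15.1, 13.9, 8.01, 9.25 and 8.74 CPM in 4-week Tsc1CKO and at 7.44, 7.26, 6.48, 8.87 and 6.85 CPM in controls (0.58 ± 0.18, adjusted p = 0.12), with replicates 1 and 2 the high ones. The authors' deposited table for this age lists 2 members among 594 genes, Tap2 with a log2 fold change of 0.55 ± 0.16 (adjusted p = 0.0241) and H2-T24 with 0.57 ± 0.19 (adjusted p = 0.0491). DESeq2 fitted here called the same 2 genes, with 4.01% of all genes called, and limma voom called 0 members. The authors' deposited table for 15 weeks lists 0 members among 1062 genes. The classical heavy chains H2-K1 (0.25 ± 0.25, adjusted p = 0.627) and H2-D1 (0.09 ± 0.14, adjusted p = 0.775) and tapasin (0.19 ± 0.09, adjusted p = 0.268) were not called. Over class I the median was 0.19, and over class II it was 0.03, against 0.00 over all genes. Cd74 was at 1.82 to 4.997 CPM in Tsc1CKO and 1.02 to 6.85 CPM in controls, and its log2 fold change was -0.03 ± 0.42 (adjusted p = 0.983). No library of this age had class II chains above 4.18 CPM in sum.

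Whether the genotype difference changed with age was tested over all 17 libraries. B2m had a difference of differences of 0.91 ± 0.35 (SE; adjusted p = 0.137), H2-K1 of 1.12 ± 0.56 (adjusted p = 0.224), H2-D1 of 0.88 ± 0.46 (adjusted p = 0.238) and Tapbp of 0.30 ± 0.15 (adjusted p = 0.221). edgeR called 0 of 19 class I and 0 of 9 class II members, against 0.213% of 15492 genes. At an unadjusted p under 0.05 there was 1 class I member, B2m, against 12.7% of all genes that were higher at that level. DESeq2 called 0 members, with 6.89% of all genes called, and limma voom called B2m and H2-K1, with 25.5%. Without Tsc1CKO replicate 4 at 15 weeks, edgeR called B2m and H2-D1, with 22.6% of all genes called. Tap2, whose groups were apart at 4 weeks, differed by -0.09 ± 0.24 between the ages (adjusted p = 0.847).

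In controls alone, 15-week cortex was compared with 4-week cortex, which shares its control libraries with the genotype comparisons. The 2 classical heavy chains rose: H2-D1 went from 9.57, 14.4, 13.4, 15.0 and 17.5 CPM at 4 weeks to 24.8, 49.2 and 25.0 CPM at 15 weeks (1.24 ± 0.25, adjusted p = 0.00433). H2-K1 went from 4.40, 6.65, 6.91, 7.63 and 8.27 CPM to 11.6, 25.9 and 9.10 CPM (1.19 ± 0.33, adjusted p = 0.0174). Their groups did not overlap, as for 21.9% of all genes that were higher at 15 weeks. Tap2 rose too (0.94 ± 0.16, adjusted p = 0.000679), and was called in 19 of 19 alternatives. H2-T23 was called (0.74 ± 0.26, adjusted p = 0.0385), but in 9 of 19 alternatives, and it was at 0.47 (adjusted p = 0.201) without control replicate 1 of 15 weeks and at 0.66 (adjusted p = 0.123) without replicate 2. Pituitary genes differed between these groups, at 65.1, 72.9, 119, 3.16 and 1.94 CPM in 4-week and 2.69, 1.35 and 1.32 CPM in 15-week controls. With Gh as a covariate H2-K1 was at 0.97 (adjusted p = 0.123) and no longer called, nor was H2-T23 (adjusted p = 0.0789), while H2-D1 and Tap2 were. B2m stayed at 71.7 to 100.2 CPM at 4 weeks and 73.9 to 96.0 CPM at 15 weeks, a difference of 0.02 ± 0.11 (adjusted p = 0.929), whose sign turned under 8 of the alternatives.

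The scarce H2-M5 and H2-M10.2 fell. H2-M5 had a median of 1.58 CPM at 4 weeks and of 0.749 CPM at 15 weeks (-1.13 ± 0.29, adjusted p = 0.00803), and H2-M10.2 medians of 1.19 and 0.403 CPM (-1.35 ± 0.35, adjusted p = 0.00858). This makes 4 of 18 class I members higher and 2 lower, where age called 41.8% of all genes, 22.4% higher and 19.3% lower. The class I share of higher calls is thus no larger than the background. Of 7 class II members tested, 3 rose with age, H2-Eb1 (3.02 ± 0.69, adjusted p = 0.00681), H2-Aa (2.40 ± 0.82, adjusted p = 0.0458) and H2-Ab1 (2.34 ± 0.81, adjusted p = 0.0481). The fold change of H2-Eb1 was the highest among the 15007 genes tested. It rests on 3, 11, 7, 3 and 17 counts at 4 weeks and 25, 150 and 22 at 15 weeks. The filter by group lets such a scarce gene pass through the group where it is high. This rank and the 3 of 7 therefore describe only genes that passed. Without control replicate 2 of 15 weeks, H2-Eb1 was the 1 class II member called (1.62 ± 0.45, adjusted p = 0.0183). H2-D1 and H2-K1 were then at 0.83 and 0.61, both still called. With Gh as a covariate none of the 3 class II rises was called (adjusted p = 0.0685 for H2-Eb1, 0.241 for H2-Aa and 0.263 for H2-Ab1).

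Neighbours along the MHC had unlike differences at 15 weeks. On chromosome 17, H2-Ke6 lies 27.7 kb from the start of H2-K1 and H2-Ke2 lies 60.0 kb from it on the other side, between H2-K2 and Tapbp. H2-Ke6 was at 13.3, 17.6, 12.8 and 15.8 CPM in 15-week Tsc1CKO and at 15.6, 15.1 and 23.7 CPM in controls (-0.26 ± 0.19, adjusted p = 0.411), and 59.8% of its windows are shared with another gene model. H2-Ke2 was at 23.99, 27.2, 21.3 and 21.8 CPM against 23.99, 20.5 and 22.0 CPM (0.11 ± 0.12, adjusted p = 0.593). H2-DMa, 134.8 kb away, had a difference of 0.15 ± 0.28, while H2-DMb1 at 152.7 kb had 1.91 ± 0.70, and neither was called. Contrasts between neighbours were not tested. B2m and Cd74, which lie on other chromosomes, shared their highest 15-week library, Tsc1CKO replicate 2, with H2-K1 and H2-Aa.

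**Figure D5:**
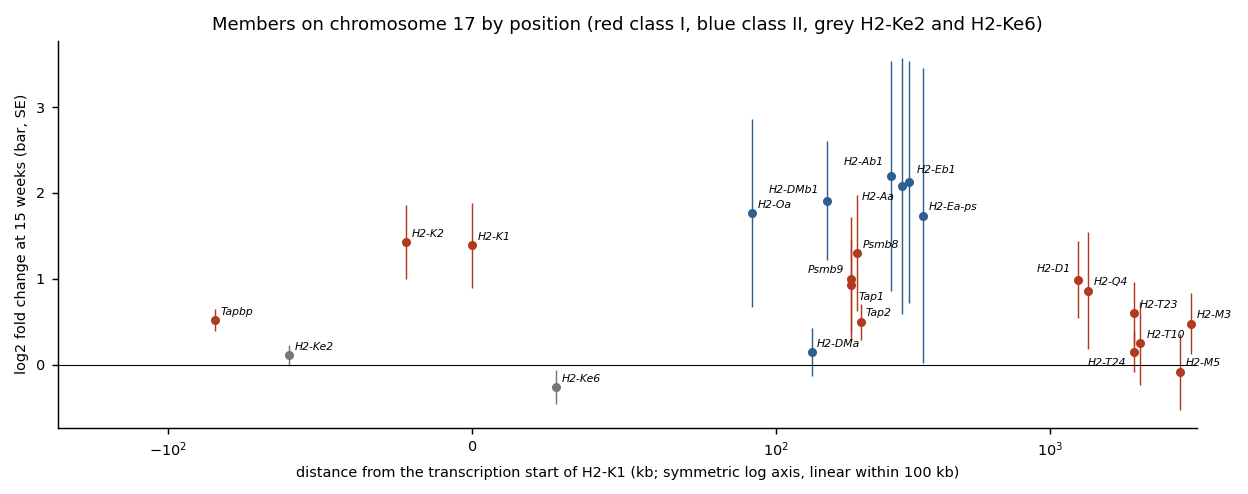
Log2 fold change at 15 weeks (y axis; bars, SE) against distance from the start of H2-K1 on chromosome 17 (x axis in kb, symmetric log scale) for the members tested there. In grey, H2-Ke2 (0.11) lies between Tapbp and H2-K2, and H2-Ke6 (-0.26) between H2-K1 and H2-Oa, all 4 with larger values.

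One scarce class I gene went the other way. H2-Q10 is a heavy chain known for secretion by the liver and was singled out for its values. It stood at 0.159, 0.0625, 0.0581, 0.146 and 0.137 CPM in 4-week Tsc1CKO and at 0.354, 0.495, 0.493, 0.339 and 0.365 CPM in controls. At 15 weeks it was at 0, 0.0606, 0.0557 and 0 CPM against 0.117, 0.216 and 0.518 CPM, and at both ages every Tsc1CKO library lay below every control, as for 1.48% of the genes tested at 4 weeks and 13.3% at 15 weeks. H2-Q10 was too low for the filter, so these shares, over genes that passed it, are not a fair background for H2-Q10. Without the filter its log2 fold change was -1.81 at 4 weeks (adjusted p = 0.0935) and -3.03 at 15 weeks (adjusted p = 0.099). These values rest on 0 to 9 counts a library, and H2-Q10 shares 13.01% of its windows with other genes or places, H2-Q7 among them.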

How the data were processed

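RNA from 17 cortex samples (9 Tsc1CKO, 8 control) was sequenced as poly-A libraries with 100-base reads, per the labels' protocols. Mapping used Tophat 2.0.4 against mm9, per the submitters' processing notes. Which program and gene annotation counted the reads, and whether by strand, is not given in the sources used here. The deposited count table holds whole-number counts per gene symbol; its header is one place off, so columns were taken by number after a check against the authors' other tables, and 25 symbols had been turned into dates. In the authors' deposited tables of genes past their cutoff, signal values are counts divided by a size factor per library. The same deposited tables give a log2 fold change, a Wald score and a p-value per gene from DESeq2, per the file headers.

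Here edgeR 4.0.16 (R 4.3.3) was run on the counts with TMM factors, filterByExpr by group and the robust quasi-likelihood test, within each age for genotype, in controls for age and over all 17 libraries for the difference between ages. Calls need a Benjamini-Hochberg adjusted p under 0.05 over all genes tested. Alternatives included DESeq2 1.42.0, limma 3.58.1 voom, other filters and factors, and leaving out libraries. The fit was tested on simulated data. Log2 ratios of counts used 0.5 added to each count. No replicate pair was alike within sampling noise (chi-square per degree of freedom 6.90 to 93.6). Members and lists were chosen with earlier results of these data known. Values in every library are given for members with a mean log2 CPM of at least 3 or a call in a genotype comparison; other members named were chosen after their values were seen.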

Additional observations from a re-analysis of the deposited data

Results flagged for a closer look

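Of 33 groups of 4 or 5 libraries examined for a library far from the rest of its group, 3 had one, where chance gives about 1 in 20. B2m was at 117.3 CPM in Tsc1CKO replicate 5 at 4 weeks, next to 100.9 CPM in the nearest library of that group. Cd74 was at 209.5 CPM in Tsc1CKO replicate 2 at 15 weeks, next to 12.8 CPM, and H2-DMa was at 15.3 CPM in the same library, next to 7.80 CPM. Groups of 3, such as the 15-week controls, were not examined in this way.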

How the results depend on the processing

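Class I members called at 15 weeks numbered 0 in edgeR, 3 with DESeq2, 6 with limma voom and 4 with all 17 libraries in 1 fit. They numbered 3 at an adjusted p of 0.1, and 0 to 5 with 1 library left out, the 5 without Tsc1CKO replicate 4. Of all genes, 14.2% were called with DESeq2, 34.5% with voom, 22.6% with all 17 libraries and 0.256% to 23.2% with 1 library left out. Class II calls there were 1 with DESeq2, 1 with voom, 1 with all 17 libraries and 0 to 1 with 1 library left out. At 4 weeks class I calls were 2 with DESeq2, 1 at an adjusted p of 0.1 and 0 to 0 with 1 library left out. For the difference between ages, class I calls were 2 with voom and 0 to 2 with 1 library left out. For age in controls, class I calls were 10 at an adjusted p of 0.1 and 5 to 8 with 1 library left out. Class II calls were 1 without the filter, 1 with Gh as a covariate (Ciita, lower, with 0 higher) and 0 with all 17 libraries. They were 1 without control replicate 2 of 15 weeks and replicate 4 of 4 weeks, and 1 to 4 with 1 library left out. Of all genes, age called 30.5% without the filter, 29.2% with Gh as a covariate and 30.7% with all 17 libraries. It called 33.5% without those 2 replicates and 32.3% to 42.6% with 1 library left out.

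Deviations of same-numbered libraries from their group means, over all genes past the filter, had correlations of 0.21, -0.13 and 0.02 at 15 weeks. Libraries with unlike numbers were not compared, so whether the numbers mark pairs was not tested. With the replicate number as a block, class I and class II calls were 8 and 4 at 15 weeks, with 18.9% of all genes called. Class I calls were 4 for the difference between ages, with 17.5% of all genes called, and 3 for age, with 38.5%. A replicate number without a partner in the other group, such as Tsc1CKO replicate 4 at 15 weeks, in effect drops out of this fit. Leaving out that library alone called 23.2% of all genes at 15 weeks. With the block, B2m with age was at -0.036, H2-Ke6 with age at -0.015 and Cd74 at 4 weeks at 0.10.

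Signs that turned, on the log2 scale, were mostly near 0, except for Cd74, and the cause was not tested. With Gh as a covariate they were at 15 weeks Psmb10 -0.13, H2-DMa -0.27, Cd74 -1.69 and H2-Ke2 -0.024, at 4 weeks Cd74 0.16, and with age B2m -0.019, H2-T24 -0.031 and H2-Ke6 -0.052. With voom they were H2-DMa -0.024 and Cd74 -0.18 at 15 weeks, Cd74 -0.14 for the difference between ages, and H2-Ke6 -0.0022 at 4 weeks and -0.084 with age. With a minimum of 1 CPM, age gave B2m -0.0064, H2-T24 -0.0089 and H2-Ke6 -0.0061. Without both libraries numbered 2, H2-DMa was at -0.30 and H2-Ke2 at -0.026 at 15 weeks, and H2-DMa at -0.29 for the difference. Without control replicates 2 and 4 of the respective ages, age gave B2m -0.12 and H2-T24 -0.15.

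With 1 library left out, the ranges at 15 weeks were -1.03 to 3.48 for Cd74, -0.19 to 0.26 for H2-DMa, -0.00093 to 0.40 for H2-T24, -0.084 to 0.79 for the Psmb9 to Psmb6 ratio and -0.16 to 0.035 for the Psmb10 to Psmb7 ratio. At 4 weeks they were -0.26 to 0.49 for Cd74, -0.12 to 0.0016 for H2-DMa, -0.019 to 0.19 for H2-D1 and -0.028 to 0.073 for H2-Ke6. For the difference they were -1.02 to 3.47 for Cd74 and -0.16 to 0.27 for H2-DMa, and with age -0.060 to 0.12 for B2m, -0.22 to 0.16 for H2-T24 and -0.22 to 0.14 for H2-Ke6. In scarce members, 3 counts are worth 0.122 to 0.219 CPM, and smaller differences were not detectable.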

Other observations

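H2-M9, a class I-like heavy chain, was counted only in Tsc1CKO libraries at 15 weeks, with 8, 4, 1 and 0 counts in replicates 1 to 4, and had 0 counts in the other 13 libraries. It was singled out after its values were seen and was too low for the filter. Without the filter its adjusted p at 15 weeks was 0.166.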
